A study of Mus musculus with 9 samples.

Results

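Among 10 genes of T cell exhaustion, the H3K27ac count ratio was farthest from 1 between naive CD8+ T cells with and without Tcf1 and Lef1 over Tox2, which held 4918 island counts in WT and 1450 in dKO cells and had a promoter island in WT alone. The 10 genes were the inhibitory receptor genes Pdcd1, Havcr2, Lag3, Tigit, Cd160, Cd244 and Btla, the ectonucleotidase gene Entpd1, and the transcription factor genes Tox and Tox2. They were taken by name from the 22380 protein-coding genes annotated on the mm9 build of the mouse genome, and all 10 were found there. For each gene, a window ran from 50 kb upstream of its transcription start site (TSS) to the end of the gene body. Every H3K27ac island that touched the window was counted whole.

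H3K27ac, an acetylation mark on histone H3 at active promoters and enhancers, was measured by ChIP-seq in GFP+ TCRbeta+ CD62Lhi CD44lo-med CD8+ T cells sorted from mouse spleen. WT cells were hCD2-Cre+ Rosa26 GFP with Tcf7+/+ and Lef1+/+ alleles, and dKO cells were hCD2-Cre+ Rosa26 GFP with Tcf7 fl/fl and Lef1 fl/fl alleles, labelled Tcf1-/-Lef1-/-. Both genotypes thus carried the Cre transgene, which acts in mature T cells, and the GFP reporter of Cre activity, and only GFP+ cells were sorted because excision is incomplete. The 9 samples were 4 WT and 3 dKO H3K27ac libraries and 1 input for each genotype. The authors pooled the replicates before calling islands, so each genotype gave 1 list of islands with counts and no spread between mice could be estimated. No test was possible, differences are given as ratios with 95% Wilson intervals that cover counting error only, and a ratio of at least 1.5 in either direction, or 0.585 on the log2 scale, was called a difference.

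Inhibitory receptors are membrane proteins that dampen signalling through the T cell receptor and CD28 when they meet their ligands on other cells. Naive CD8+ T cells carry little of most of them, activation induces them for a time, and chronic stimulation keeps them high in exhausted T cells. Tox, an HMG-box protein like Tcf1 and Lef1, is known for establishing the chromatin state of exhausted cells, and Tox2 is its close paralog. Tcf1, encoded by Tcf7, is known for sustaining the stem-like cells of an exhausted population.

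The stretches of DNA shown here are the places in these windows on which results below turn. The first lies in the study's list of accessible sites linked to Havcr2 (its cluster 2), at mm9 chr11:46218580-46218879 on the plus strand. Its centre is at -49.7 kb from the Havcr2 TSS, inside a coding exon of Fam71b. The second overlaps the site linked to Cd160 (cluster 4, chr3:96618408-96618652) and runs past its end, at mm9 chr3:96618445-96618680 on the plus strand. It is just upstream of an inner TSS of Cd160 and within an intron of its longer transcripts. The third is the 250 bases before the Tox2 TSS, at mm9 chr2:163028611-163028860 on the plus strand, under the promoter island found in WT alone. Capitals mark exact matches, on either strand, to CTTTG followed by AA, AT, TA or TT, letters of the Tcf/Lef consensus, counted also where matches overlap.
Havcr2 site: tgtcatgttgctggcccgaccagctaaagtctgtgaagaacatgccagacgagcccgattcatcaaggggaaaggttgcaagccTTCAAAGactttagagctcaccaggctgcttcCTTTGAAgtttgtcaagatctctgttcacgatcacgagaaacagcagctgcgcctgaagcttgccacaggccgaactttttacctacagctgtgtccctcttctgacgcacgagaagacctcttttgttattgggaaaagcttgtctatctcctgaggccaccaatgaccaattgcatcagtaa
Cd160 site: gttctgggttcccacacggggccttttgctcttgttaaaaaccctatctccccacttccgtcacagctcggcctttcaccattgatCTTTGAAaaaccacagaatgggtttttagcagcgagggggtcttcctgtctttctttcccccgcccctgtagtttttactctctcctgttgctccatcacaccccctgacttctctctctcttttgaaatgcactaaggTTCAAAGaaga
Tox2 promoter: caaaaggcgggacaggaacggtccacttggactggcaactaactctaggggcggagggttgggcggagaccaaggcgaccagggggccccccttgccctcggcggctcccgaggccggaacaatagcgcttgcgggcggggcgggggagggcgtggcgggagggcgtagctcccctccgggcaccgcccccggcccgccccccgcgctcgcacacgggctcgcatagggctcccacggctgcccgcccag

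In windows of 300 bases, the Havcr2 and Cd160 sites each held 2 matches, CTTTGAA on 1 strand and its reverse complement TTCAAAG. The TTCAAAG of the Cd160 window lies past the end of the listed site. Of the 321 listed accessible sites, 40.8% held at least 1 match and 9.97% held at least 2. Promoter windows of 250 bases before to 50 after the TSS held a match in 15.7% of all 22380 protein-coding genes and in 0 of the 10 genes described here. The Tox2 promoter stood out instead by its base composition. It was 76.7% G and C over the 300 bases and held 38 CpG dinucleotides, against a median of 11 over all promoters. A match in these letters is a description of the sequence and not evidence of binding.

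The WT list held 65563 islands with 82668007 counts and the dKO list held 82213 islands with 57665047 counts, a mean of 210.5 and 134.3 counts per kb of island. Counts were therefore divided by the total of their list before a ratio was taken, and fewer cells with the mark and less of the mark per cell cannot be told apart. The CD8+ T cell markers Cd3e, Cd3d, Cd3g, Cd8a, Cd8b1, Cd5 and Lck had promoter islands in both lists, at 325 to 433 counts per kb in WT and 217 to 258 in dKO. Of 10 markers of other cells the sort could hold, 9 also had promoter islands in both lists (108 to 395 counts per kb in WT and 86.4 to 248 in dKO), and the NK cell marker Ncr1 had none in either. The part of other cells in the values below was not tested. Islands on chromosome Y numbered 1 in WT and 17 in dKO. The paper used mice of both sexes, and whether the pools differed in sex, or what part this had in the ratios, was not tested.

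A window sum takes in regions with an island in 1 list alone, where the reads of the other list were not counted, so its ratio depends on where islands were called. Over whole windows, 1 of the 10 genes (Lag3) was higher in dKO by at least 1.5, where 11.5% of the 16487 genes with islands in both lists were. Havcr2 and Tox2 were lower by at least 1.5, where 11.5% of all genes were. The median log2 dKO to WT ratio was 0.10 over the 10 genes and -0.03 over all genes. For islands cut at the window borders, reads were not recounted. Each island kept counts in proportion to its width inside the window, as if its reads were spread evenly. The intervals of cut values treat these estimates as counted reads. When the islands were cut in this way, 0 of the 10 genes were higher by 1.5, where 8.27% of all genes were. Lower were 2 (Pdcd1 and Tox2), where 9.71% of all genes were. With whole islands, a log2 ratio above 0 was found for 6 of the 10 genes and for 47.4% of all genes. By counts per kb of island, 0 of the 10 genes passed it, where 0.425% of all genes were higher and 9.28% were lower.

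**Figure D1:**
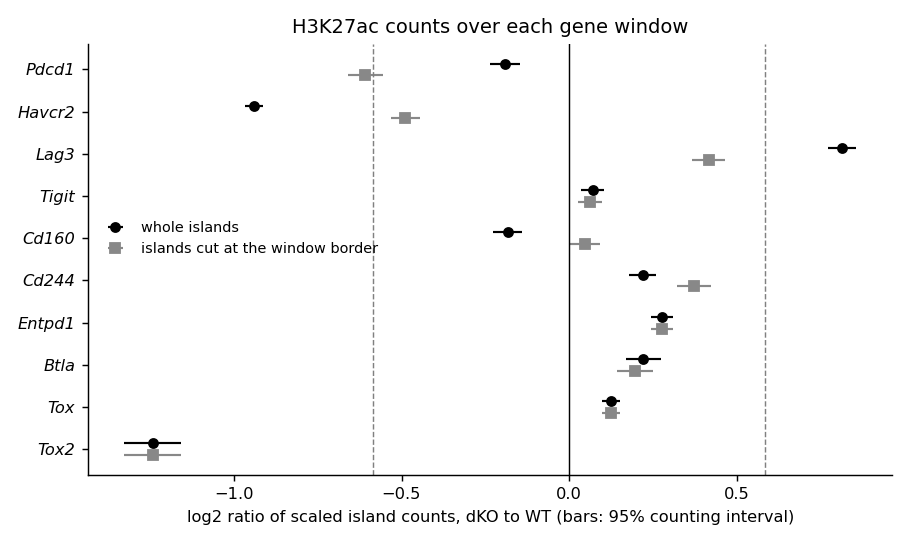
Log2 dKO to WT ratio of scaled island counts (x axis) over the window of each of the 10 genes (y axis), with islands counted whole (black circles) or cut at the window border (grey squares). Counts of cut islands are estimates in proportion to the width inside the window. Horizontal bars are 95% Wilson intervals for counting error and dashed lines mark a ratio of 1.5 either way. Tox2 lies at -1.24 by both counts, whereas Havcr2 moves from -0.94 to -0.49, Lag3 from 0.81 to 0.42 and Pdcd1 from -0.19 to -0.61.

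Tox2, encoding the paralog of Tox, spans chromosome 2 from 163028861 to 163149906 on the plus strand. Its window held 8 WT islands with 4918 counts over 29.4 kb and 6 dKO islands with 1450 counts over 12.2 kb. The log2 count ratio was -1.24 (-1.33 to -1.16), and 2.36% of the genes with islands in both lists had a lower one. Over the 3 regions with islands in both lists alone, 2578 and 1078 counts gave -0.74 (-0.84 to -0.64). Islands covered 17.2% of the window in WT and 7.13% in dKO, so that the width ratio was -1.27 on the log2 scale. In contrast, the density of these islands was alike after scaling, at 167 counts per kb in WT and 119 in dKO, a log2 ratio of 0.03. The difference at Tox2 was thus in how much of the locus was in islands and not in the mean counts per kb of those islands. That mean is over unlike sets of islands in the lists. At the shared regions, the log2 ratio of counts per kb was -0.31 at -36.2 kb, 0.06 at -42.2 kb and 0.19 at 51.3 kb.

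The 11 merged regions of the Tox2 window, formed from overlapping islands of both lists, were 5 found in WT alone, 3 found in dKO alone and 3 found in both. Over the whole genome, 12.8% of merged regions were in WT alone and 28.1% in dKO alone. The promoter region at chr2:163027801-163032200 held 908 WT counts over 4.4 kb, the most counts of any WT-only region in the 10 windows. A dKO island within 1 kb of the TSS was present for the other 9 genes, and 3.19% of the 13837 genes with a WT promoter island lacked one in dKO. At the WT density of 206 counts per kb, this region would hold 144 counts per kb at the total of the dKO list, where 1% of islands lie below 68.8. Nearly all WT islands pass that level when scaled in this way, and dKO reads in this region were not counted. The other WT-only regions had centres at 25.9, 28.9 and 76.2 kb within introns and at -27.5 kb, with 402, 254, 224 and 552 counts. The scaled density of the -27.5 kb region, 68.8 counts per kb, was at the level under which 1% of dKO islands lie.

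The 3 regions of Tox2 shared by both lists were also lower in dKO. The largest, centred at -36.2 kb, held 1555 counts over 7 kb in WT and 702 over 5.6 kb in dKO, giving a log2 ratio of -0.63. The region at -42.2 kb held 549 and 141 counts (-1.44), and the intronic region at 51.3 kb held 474 and 235 (-0.49). In contrast, the 3 regions in dKO alone, at 82.7, 98.8 and 112.9 kb in the distal part of the gene, were small, with 110, 145 and 117 counts. No merged region of this window lay over the promoter of another gene.

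**Figure D2:**
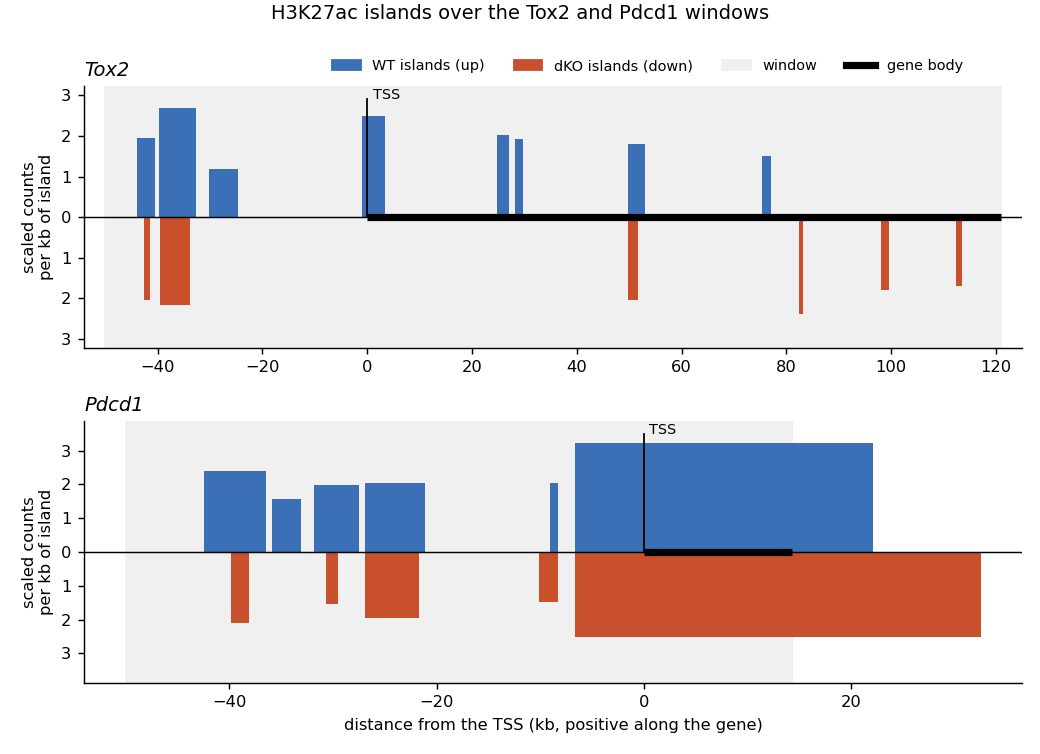
Islands of WT (blue, upward) and dKO cells (red, downward) over the windows of Tox2 and Pdcd1, by distance from the TSS in kb (x axis) and by CPM per kb of island (y axis, counts scaled to the island total of each list). Black bars are gene bodies and grey shading is the window. Tox2 has a WT island over its TSS and none in dKO, and Pdcd1 has narrow dKO islands under wide WT islands from -42.5 to -27.5 kb.

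Pdcd1 encodes PD-1, the receptor for PD-L1 and PD-L2, and spans chromosome 1 from 95934884 to 95949130 on the minus strand. Its window held 11061 counts over 48.6 kb in WT and 6758 over 49.2 kb in dKO, for a log2 ratio of -0.19 (-0.23 to -0.15) that was higher than at 34.3% of all genes. The promoter and the upstream part of the window differed from each other. The promoter region at chr1:95916601-95955800, which covers the whole gene and the promoter of the neighbour Neu4, held 9100 counts over 38.6 kb in WT and 5695 over 39.2 kb in dKO. Its log2 ratio of -0.16 (-0.20 to -0.11) stood close to the median of -0.19 over all promoters with islands in both lists.

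Upstream of Pdcd1 the regions went both ways. The nearest, at -9.17 kb, held 135 counts over 0.8 kb in WT and 152 over 1.8 kb in dKO (0.69). Farther upstream, a group of WT islands was narrow or absent in dKO. At chr1:95976601-95981000, centred at -29.7 kb, WT cells held 719 counts over 4.4 kb and dKO cells 106 over 1.2 kb, the lowest ratio among the shared regions of the 10 windows at -2.24 (-2.54 to -1.95). At chr1:95985601-95991600, centred at -39.5 kb, the values were 1193 counts over 6 kb and 219 over 1.8 kb, a log2 ratio of -1.93 (-2.13 to -1.72). Between them at -34.5 kb, an island of 362 counts over 2.8 kb was found in WT alone. The next region towards the gene, at -24.0 kb, did not share the difference, with 975 counts in WT and 586 in dKO (-0.21). In both upstream regions most of the ratio was width, with log2 width ratios of -1.87 and -1.74. The dKO promoter island ended at 32.5 kb and the WT island at 22.1 kb from the TSS, beyond the end of the gene. Cutting islands at the window gave estimates of 8960 counts in WT and 4102 in dKO, for a log2 ratio of -0.61 (-0.66 to -0.55). This value takes the reads of each promoter island as even along it. Over whole merged regions, the log2 ratio of the window was -0.37.

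Havcr2 encodes TIM-3, which binds galectin-9 among other ligands, and spans chromosome 11 from 46268437 to 46294757 on the plus strand. Its window held 39966 counts over 101.2 kb in WT, the most of the 10 genes, and 14535 over 70.4 kb in dKO, with a log2 ratio of -0.94 (-0.97 to -0.91). Most of these counts lay in islands that reached outside the window. A WT island of 59.8 kb with 31586 counts entered the window at its upstream end. In dKO cells the same stretch was split into 3 islands, of which 2 touched the window, with 9399 and 392 counts. The printed Havcr2 site lies under the WT island of 59.8 kb.

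Nearer to Havcr2 most regions were also lower in dKO. The promoter region at chr11:46258801-46271800 held 1902 counts over 12.4 kb in WT and 1127 over 9.6 kb in dKO (-0.24, -0.34 to -0.13), at a low WT density of 153 counts per kb against a median of 288 over all promoters. The region at -31.9 kb held 3326 and 1906 counts (-0.28). Within the gene, an intronic region at 6.46 kb held 514 and 280 counts (-0.36) and a region over an exon at 12.6 kb held 279 and 199 (0.03). At -17.5 kb, the region over the promoter of Med7 held 2069 and 1114 counts (-0.37). Of the 7 regions in both lists, 6 were lower in dKO and 1 passed the ratio of 1.5, the region of 1190 and 526 counts that begins in the last part of the gene (-0.66). With islands cut at the window, Havcr2 had a log2 ratio of -0.49 (-0.53 to -0.44).

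Lag3 encodes a receptor for MHC class II that is related to CD4, and spans chromosome 6 from 124854379 to 124861723 on the minus strand. Its window held 8112 counts over 37 kb in WT and 9947 over 67.2 kb in dKO, the only raw count of the 10 that was larger in dKO. The log2 ratio was 0.81 (0.77 to 0.86), made up of a width ratio of 0.86 and a ratio of counts per kb of -0.05. Islands were wider in dKO at the flanking promoters of Mlf2 and Cops7a. Over Mlf2 at -19.0 kb, 2447 counts lay in 4.6 kb in WT and 2187 in 11.4 kb in dKO, and the scaled log2 ratio was 0.36 for counts and -0.95 for counts per kb. Over Cops7a, 2693 counts lay in 4.4 kb in WT and 2394 in 12.8 kb in dKO, with ratios of 0.35 and -1.19. These were the 2 regions of the 82 shared in the 10 windows that passed the ratio of 1.5 by counts per kb, where 1.17% of all shared regions were higher and 4.51% were lower.

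The wide dKO island at Cops7a touched the Lag3 window and the 2 WT islands there did not, so that its counts entered for dKO alone. When islands were cut at the window, the log2 ratio was 0.42 (0.37 to 0.47), and over whole merged regions it was 0.33. The promoter region of Lag3, at chr6:124839801-124873600 and shared with Ptms, held 5346 counts over 29.8 kb in WT and 4483 over 33 kb in dKO, for a log2 ratio of 0.27 (0.21 to 0.32) that was higher than at 89.8% of promoters. In addition, regions at -43.0 and -45.6 kb were found in dKO alone, with 234 and 126 counts, where 28.1% of all merged regions were in dKO alone.

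**Figure D3:**
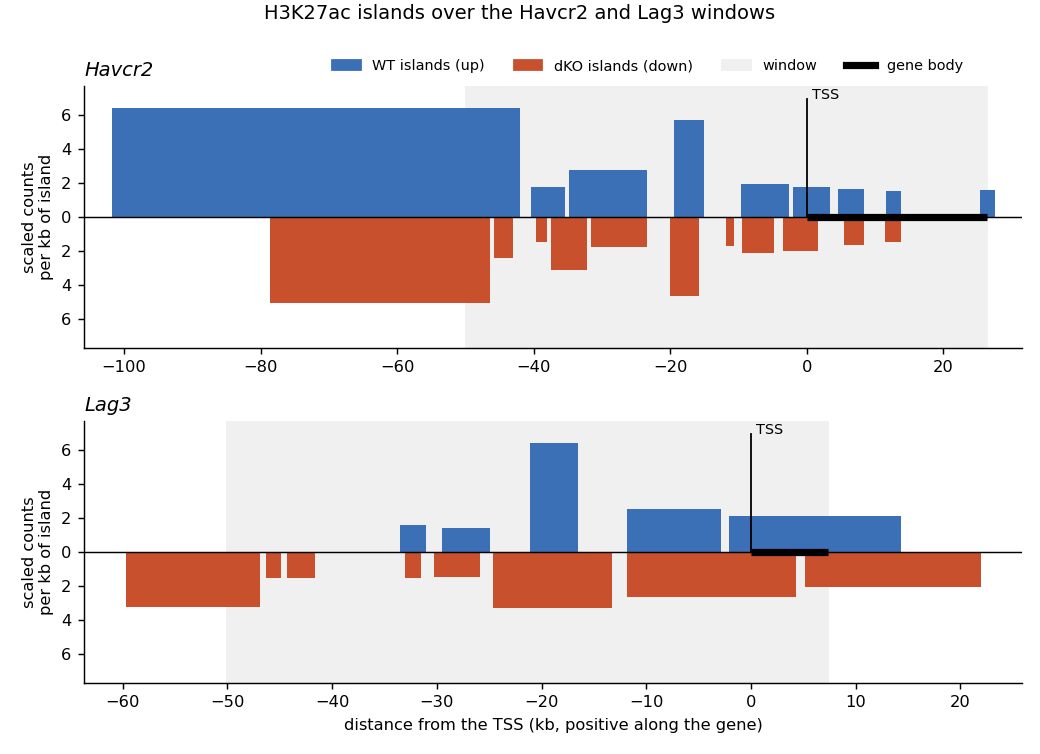
Islands of WT (blue, upward) and dKO cells (red, downward) that touch the windows of Havcr2 and Lag3, by distance from the TSS in kb (x axis) and by CPM per kb of island (y axis, counts scaled to the island total of each list). Grey shading is the window, and bars beyond it are parts of islands counted whole. The WT island of 59.8 kb at the left of Havcr2 and the dKO island of 12.8 kb at the left of Lag3 reach outside the window.

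Tigit encodes a receptor for CD155 and spans chromosome 16 from 43648974 to 43664297 on the minus strand. Its window held 15694 counts over 60.8 kb in WT and 11495 over 60 kb in dKO, for a log2 ratio of 0.07 (0.04 to 0.11). Islands covered 83.6% of the window in WT and 82.4% in dKO, the largest share of the 10 genes in both lists. All 8 merged regions of the window were found in both lists, where 59.1% of all merged regions were, and none of them passed the ratio of 1.5. The promoter region held 3754 and 2793 counts (0.09), the region at -31.7 kb held 4551 and 3895 (0.30) and the densest region, at -45.8 kb, held 3547 and 1940 (-0.35).

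Cd160 and Btla encode receptors that share the ligand HVEM, the product of Tnfrsf14. Cd160 spans chromosome 3 from 96602686 to 96633274 on the minus strand. Its window held 10606 counts over 56.2 kb in WT and 6514 over 55.2 kb in dKO, with a log2 ratio of -0.18 (-0.23 to -0.14), and of 0.05 when islands were cut at the window. A WT island of 29.4 kb with 5407 counts covered both annotated promoters of the gene and the promoter of Pdzk1. In dKO the same stretch was split by a gap into an island of 22.6 kb with 2394 counts and an island of 5.8 kb with 1054 counts over the inner TSS, where the printed Cd160 site lies. Together they gave 3448 counts and a log2 ratio of -0.13 (-0.19 to -0.07). The dKO island over the inner TSS held 182 counts per kb and the other held 106.

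Btla spans chromosome 16 from 45224428 to 45253008 on the plus strand. Its window held 6516 counts over 28.4 kb in WT and 5302 over 38.2 kb in dKO, for a log2 ratio of 0.22 (0.17 to 0.27). The promoter region and the rest of the window went different ways. The promoter region held 3526 counts over 11.4 kb in WT and 1930 over 9 kb in dKO, with a log2 ratio of -0.35 (-0.43 to -0.27). In dKO it consisted of an island over the TSS, with 1205 counts over 3 kb, and another upstream, with 725 over 6 kb. After scaling, the dKO island over the TSS held 6.97 CPM per kb over its 3 kb. The WT island held 3.74 CPM per kb over 11.4 kb, most of it upstream of the TSS, so these densities cover unlike stretches. Over the whole merged promoter region, the log2 ratio of counts per kb was -0.009. Regions at -26.5, -23.2, -19.6 and 12.2 kb were found in dKO alone with 187, 199, 294 and 163 counts. Of all merged regions of the genome, 28.1% were in dKO alone. The region over an exon at 20.0 kb held 219 counts in WT and 325 in dKO, a ratio of 1.09 on the log2 scale. Without the regions in 1 list, the log2 ratio of the window was -0.03 (-0.08 to 0.03), and by counts per kb it was -0.21.

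Cd244 encodes 2B4, a receptor of the SLAM family that binds CD48, and spans chromosome 1 from 173489324 to 173515449 on the plus strand. Its window held 10682 counts over 56.8 kb in WT and 8679 over 65.4 kb in dKO, for a log2 ratio of 0.22 (0.18 to 0.26), and of 0.37 when islands were cut at the window. The promoter region held 3010 and 2492 counts, a log2 ratio of 0.25 (0.17 to 0.32) that was higher than at 89.1% of promoters. Its ratio of counts per kb, 0.20, was higher than at 94.3% of promoters. Of the 10 merged regions, 4 were found in dKO alone, with 77 to 139 counts, and 0 in WT alone. Over the whole genome, 28.1% of merged regions were in dKO alone and 12.8% in WT alone.

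Entpd1 encodes CD39, which hydrolyses extracellular ATP and ADP on the way to adenosine, and spans chromosome 19 from 40686856 to 40816092 on the plus strand. Its window held 15813 counts over 94.6 kb in WT and 13379 over 116.8 kb in dKO, for a log2 ratio of 0.28 (0.25 to 0.31). As at Btla, the ratio of the promoter region at the 5'-most TSS was below 0 and that of the window above 0, and the other regions went both ways. Of the 13 shared regions of the window, 7 had a log2 ratio above 0 and 6 below. The region at -22.1 kb, over the promoter of Aldh18a1, held 1825 counts over 8.8 kb in WT and 878 over 5.2 kb in dKO (-0.54). The promoter region at the 5'-most TSS, shared with Tctn3, held 713 counts over 2.6 kb in WT and 363 over 1.8 kb in dKO, with ratios of -0.45 (-0.64 to -0.27) for counts and 0.08 for counts per kb. At -14.5 kb the values were 270 counts over 1.8 kb and 425 over 5.2 kb, the highest ratio among the shared regions of the 10 windows at 1.17 (0.95 to 1.39). At 5.74 kb, over an exon, they were 453 counts over 3.4 kb and 604 over 6.8 kb (0.93). The largest region, from 45.5 to 89.3 kb inside the gene, held 6503 counts in WT and 5496 in dKO (0.28). It lay over an inner TSS of Entpd1. So did the regions centred at 114.9 kb, with 728 and 647 counts (0.35), and at 124.0 kb, with 224 counts in dKO alone. By counts, the shared regions over inner TSSs thus lay above 0 and the 5'-most promoter region below 0. By counts per kb all of them lay above 0, at 0.14 and 0.16 for the inner regions and 0.08 for the 5'-most. The region from 45.5 to 89.3 kb reaches far beyond a promoter, so its ratio is not that of a promoter alone. Of the 17 merged regions, 4 (23.5%) were found in dKO alone, with 123 to 395 counts, and 0 in WT alone. Among all merged regions, 28.1% were in dKO alone and 12.8% in WT alone. Over shared regions alone the log2 ratio of the window was 0.17.

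Tox spans chromosome 4 from 6613500 to 6918704 on the minus strand and had the longest window of the 10, at 355 kb. It held 40 islands with 27682 counts over 161 kb in WT and 52 islands with 21058 counts over 186.4 kb in dKO, for a log2 ratio of 0.13 (0.10 to 0.15). The promoter region at chr4:6909201-6922000 was the densest promoter of the 10 genes in WT. There were 5032 counts over 12.2 kb in WT and 2630 over 12.8 kb in dKO, so that the density was 412 and 205 counts per kb. The log2 ratio of counts was -0.42 (-0.48 to -0.35) and that of counts per kb -0.49, the lowest of the 9 promoters with islands in both lists and lower than at all but 18.8% of promoters by counts per kb. Unlike the merged promoter regions of Entpd1 (at its 5'-most TSS) and Btla, the Tox promoter region thus kept its width and differed in density.

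Inside the Tox gene, islands were many and small. Of the 46 merged regions of its window, 27 were found in both lists, 5 in WT alone and 14 in dKO alone. The WT-only regions held 124 to 265 counts and the dKO-only regions 67 to 480 counts. Of the 27 shared regions, 14 had a log2 ratio above 0 and 13 below, and 1 passed the ratio of 1.5, over an exon at 251 kb with 225 and 255 counts (0.70). These shares at Tox, 10.9% in WT alone and 30.4% in dKO alone, stood near the 12.8% and 28.1% of all merged regions. Over its shared regions alone, the log2 ratio of the window was -0.02 (-0.05 to 0.01).

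Taking all 10 windows, there were 126 merged regions, of which 82 were in both lists, 11 in WT alone (8.73%) and 33 in dKO alone (26.2%), where 12.8% and 28.1% of all merged regions were. The WT-only regions lay in only 3 of the windows, with 5 at Tox, 5 at Tox2 and 1 at Pdcd1. Among the 82 shared regions, 6 were higher in dKO and 6 lower by at least 1.5, where 11.1% and 14.6% of all shared regions were. The 6 lower ones were 2 at Pdcd1, 2 at Tox2, 1 at Havcr2 and 1 at Lag3, and the 6 higher ones were 2 at Entpd1 and 1 each at Pdcd1, Cd244, Btla and Tox. Where a list had no island there was no count, and no ratio was given. The density of 10 of the 11 WT-only regions, scaled to the dKO total, was above 68.8 counts per kb, the level under which 1% of dKO islands lie, and that of 31 of the 33 dKO-only regions, scaled to the WT total, was above the WT level of 98.9. After scaling, these levels of the lists nearly coincide, so almost every island called in either list passes the level of the other. The counts therefore do not set these regions apart from islands at large.

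**Figure D4:**
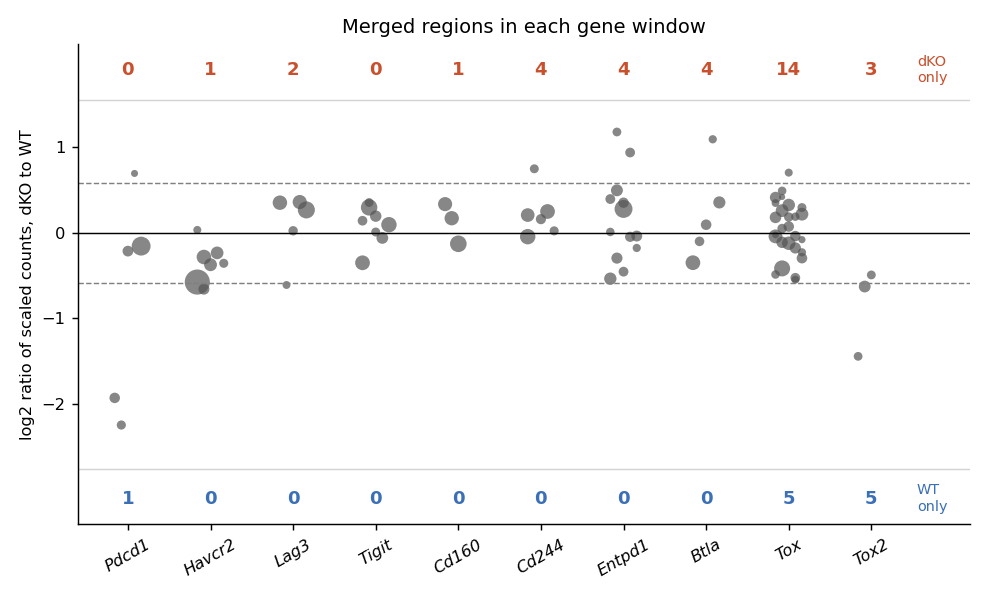
Log2 dKO to WT ratio of scaled counts (y axis) for the 82 merged regions found in both lists, by gene window (x axis), with larger points for more counts and dashed lines at a ratio of 1.5. Red and blue numbers give the regions found in dKO alone and in WT alone. The 2 lowest points belong to Pdcd1 at -2.24 and -1.93, and Tox2 has 5 of the 11 WT-only regions.

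The promoters themselves ranged widely in WT density, which is a level and not a difference. In WT cells the order was Tox (412 counts per kb), Tigit (335), Btla (309), Entpd1 (274), Pdcd1 (236), Tox2 (206), Cd160 (184), Lag3 (179), Cd244 (158) and Havcr2 (153), around a median of 288 over all promoters with a WT island. With no replicates, neighbours in this order cannot be told apart beyond counting error. In dKO cells Tigit (241) and Btla (214) stood above Tox (205), followed by Entpd1 (202), Pdcd1 (145), Lag3 (136), Cd244 (127), Cd160 (121) and Havcr2 (117). These are densities of whole merged regions, which can hold several islands. The dKO value of Btla averages an island over the TSS at 402 counts per kb and another upstream at 121.

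Splitting each count ratio into width and density showed that the 10 genes varied more in width. Over all genes, a ratio of 1.5 was likewise passed more often by counts (11.5% higher and 11.5% lower) than by counts per kb (0.425% and 9.28%). On the log2 scale the width ratio ran from -1.27 at Tox2 to 0.86 at Lag3, and the ratio of counts per kb from -0.42 at Havcr2 to 0.09 at Tigit. The median ratio of counts per kb was -0.07 over the 10 genes and -0.16 over all genes.

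**Figure D5:**
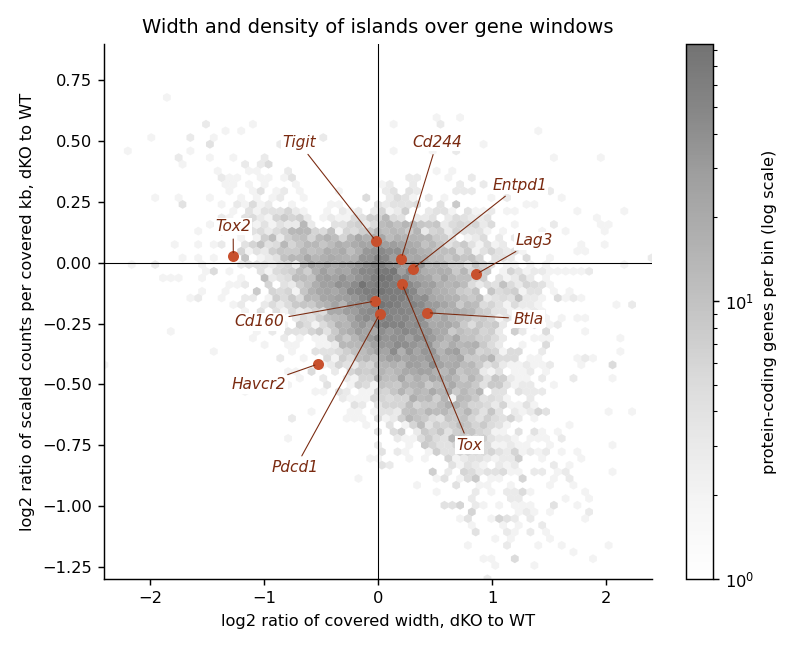
Log2 dKO to WT ratio of covered width (x axis) against that of scaled counts per kb of island (y axis) for protein-coding genes measured in both lists (grey bins, darker for more genes on a log scale, with genes beyond the axes not drawn) and for the 10 genes (red points). The sum of both coordinates is the log2 count ratio. Tox2 lies far left at -1.27 and Lag3 right at 0.86, whereas their densities are near 0.

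To place the genes in larger domains, islands within the default ROSE distance were stitched in each list and the domains ranked by counts, which gave 1138 super enhancers (SEs) among 14376 domains in WT and 973 among 12919 in dKO. Domains over Havcr2, Tigit, Cd244 and Tox were SEs in both lists. Those over Lag3, Cd160 and Entpd1 were SEs in dKO alone, and those over Pdcd1, Btla and Tox2 in neither. The share of all genes with an SE domain in each list was not computed, so these counts are not read as particular to the genes. The Havcr2 domain had rank 136 in WT with 62553 counts and rank 397 in dKO with 32059 counts. The Lag3 domain had rank 2143 in WT, where it was 62.2 kb long with 8 islands, and rank 203 in dKO, where it was 392.4 kb long with 33 islands. The Entpd1 domain had rank 1374 in WT with 143.4 kb and rank 484 in dKO with 325.2 kb. The Cd160 domain had rank 2468 in WT with 47.4 kb and rank 760 in dKO with 234.4 kb. The longer dKO domains held islands of neighbouring genes as well.

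The study's supplementary lists, used by position only, linked regions to 3 of the genes, among them the Havcr2 and Cd160 sites partly printed above. Per the paper, cluster 2 sites were less accessible in dKO cells and linked to genes with higher expression there. Havcr2 was also linked to a WT-specific hub of chromatin interactions, and the paper names it among hub genes with elevated expression in dKO cells. Of the genes described here, the study's lists of differentially expressed genes held Cd160 as downregulated and Lag3 and Entpd1 as upregulated. Expression was not measured here. Havcr2 was linked to a WT-prepotent SE at chr11:46091601-46304400, which held 62553 counts in WT and 32585 in dKO (-0.42, and -0.33 by counts per kb). Entpd1 and Ccnj were linked to a dKO-prepotent SE at chr19:40652601-40977800, which held 30094 counts over 152 kb in WT and 27981 over 226.8 kb in dKO, with log2 ratios of 0.41 for counts and -0.16 for counts per kb. These SEs were chosen by the study on the same libraries and are not independent evidence of a direction.

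Among 26 ligands, paired receptors, signalling partners and Tox paralogs of the 10 genes, 25 had islands in both lists. Of these, 1 was higher in dKO by at least 1.5, 7 were lower and 17 passed in neither direction, with a median log2 ratio of -0.16, where 11.5% of all genes were higher, 11.5% were lower and the median was -0.03. The higher one was Cd96 (0.61), a receptor for CD155 alongside Tigit, which no longer passed when islands were cut at the window (0.28). Lower ligand genes were Ceacam1 (1439 counts in WT and 502 in dKO), which encodes a TIM-3 ligand, Fgl1 (-0.71), which encodes a LAG-3 ligand, Pvrl2 (-0.84), which encodes the nectin CD112, and Tnfrsf14 (-0.69), which encodes HVEM. Tnfrsf14 held 17363 counts over 46 kb in WT and 7496 over 40 kb in dKO. Also lower were Cd226 (-0.60), the activating counterpart of Tigit, and Nt5e (-0.67), which encodes CD73, the enzyme that acts after CD39 on the way to adenosine. Sh2d1a, the adaptor SAP that binds 2B4, was lower as well (-0.88), but it lies on chromosome X, where the median over 436 genes was -0.62. With islands cut at the window, 0 of the 25 were higher, where 8.27% of all genes were, and 5 were lower, where 9.71% were. Cd226 (-0.55) and Nt5e (-0.58) no longer passed the ratio of 1.5 then. Tox3, a further Tox paralog, had 1 WT island of 316 counts over 1.8 kb and none in dKO.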

How the data were processed

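Per the labels and the methods, the authors aligned H3K27ac ChIP-seq reads with Bowtie2 2.2.5 to mm9, retained unique alignments of mapping quality above 10, combined the replicates of each genotype and called islands with SICER 1.1, using a 200 bp window, a 400 bp gap and an FDR limit of 0.01. Counts in the deposited files are raw reads per island, not scaled for depth or width. Whether duplicate reads were removed is not given in the sources used here. Inputs were not analysed, and values of a locus next to Havcr2 are not reported here. Here, starts were counted from 1, islands sharing at least 1 bp were merged, and counts were divided by the list total (Python 3.11.15, pandas 2.3.3). Genes came from GENCODE vM1 on NCBIM37, which is mm9, with 0 islands beyond its chromosome ends, and a promoter was 1 kb either side of the 5'-most TSS. Sequences were read from that genome. The text names all 10 genes, and partner genes past a ratio of 1.5 by counts or found in 1 list. Members and lists were chosen with earlier results of these data known. Scripts were tested on simulated data. No p-value was computed, since each genotype is 1 pooled list.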

Additional observations from a re-analysis of the deposited data

How the results depend on the processing

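The counts of genes past a ratio of 1.5 depended on the window and the measure. Against 1 higher and 2 lower, there were 1 and 1 over the gene body only, 0 and 1 with 10 kb upstream, 0 and 2 with islands cut at the window or without regions over another gene's promoter, 0 and 0 by counts per kb, and 0 and 1 at a ratio of 2. Whole merged regions and shared merged regions only, both chosen after seeing the data, gave 0 and 1 each. The median log2 ratio over the 10 genes was 0.17 without regions over another gene's promoter, 0.17 under either scaling to shared regions, which adds 0.07 to every ratio, -0.0667 by counts per kb and 0.0247 over shared merged regions only. By counts per kb, Lag3 turned to -0.0471, Tox2 to 0.0265, Btla to -0.2055, Tox to -0.0863 and Entpd1 to -0.0256. Btla also turned to -0.222 over the gene body only, and over shared regions only Btla turned to -0.0276, Tox to -0.0190 and Cd160 to 0.0683. Cd160 was above 0 also with islands cut (0.0464), over whole merged regions (0.0989) and without regions over another gene's promoter (0.276). Tox2 kept its direction and passed 1.5 in 10 of 11 alternatives, all but counts per kb, with a value of -0.74 over shared regions only. Pdcd1 ran from -1.15 without regions over another gene's promoter, which leaves out its own, to 0.10 with 10 kb upstream. Filtering islands under 3 CPM and adding 10 pseudocounts left the counts at 1 and 2. No paired analysis was possible because the replicates were pooled in the deposited lists. No replicate could be left out for the same reason. At these depths, counting intervals are narrow, but spread between mice is unknown.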
